A study of Mus musculus with 36 samples.

Results

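The Paneth cells of the mouse small intestine were taken from a single-cell data set of 2 libraries, using the cell type that the authors had given each annotated barcode. Of 2614 annotated cells, 158 were named Paneth, 84 in library 1 and 74 in library 2. Both libraries held separated intestinal cells of 12-month-old wild-type mice of the strain labelled C57BL6/2J. They were prepared with the 10x Genomics Chromium system, which tags each transcript with a unique molecular identifier (UMI). No allele or treatment is given in the labels. Nor do they say how many animals went into a library or which stretch of the intestine was used, so the spread between the 2 libraries may be technical. The series also profiled small RNAs of sorted epithelial lineages, which are not described here. The authors named the cell types from the expression of the same cells. Every comparison of Paneth cells with other cells below is therefore a description, and no p-value is given.

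Paneth cells sit at the base of the crypts, between the stem cells. They make granules of antimicrobial proteins, among them lysozyme and the α-defensins, which mouse studies also call cryptdins and which are cut to their active form by the protease matrilysin. The cells also give the neighbouring stem cells signals of the Wnt, Notch and EGF families. They carry a dense endoplasmic reticulum (ER), where secreted proteins are folded.

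The annotation and its 4 markers went together in both libraries. The markers Lyz1 (lysozyme), Defa24 (an α-defensin), Mmp7 (matrilysin) and Ang4 (an antimicrobial angiogenin) held 35.5% of the Paneth UMIs in library 1 and 32.6% in library 2, against 0.407% and 0.204% in all other annotated cells. Among single Paneth cells of library 1 the share ran from 19.1% to 50.01% with a median of 36.1%. In library 2 it ran from 2.95% to 49.7% with a median of 33.4%. Defa24 was detected in 84 of 84 and in 74 of 74 Paneth cells. The lowest Paneth cell of library 2 lay inside the range of several other types: the highest goblet cell reached 11.2% in library 1 and 18.4% in library 2, and the highest secretory progenitor 13.004% and 10.3%.

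The libraries differed in depth and in mitochondrial reads before any gene is compared. Library 1 had 1209 barcodes and library 2 had 7711, of which 65 and 6241 carried no annotation, and the libraries shared 0 barcodes. Annotated cells started at 8339 UMIs in library 1 and at 1116 in library 2. The median share of mitochondrially encoded transcripts was 0.748% in the Paneth cells of library 1 and 4.13% in those of library 2. In the other annotated cells it was 6.06% and 9.65%.

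Paneth cells were few but deep. They were 7.34% of the annotated cells in library 1 (95% exact binomial interval 5.90% to 9.01%) and 5.03% in library 2 (3.97% to 6.28%), intervals that cover counting error only. They held 24.5% and 9.24% of the annotated UMIs. A Paneth cell had a median of 73555 UMIs in library 1, with a range of 8999 to 146185, and 67245 in library 2, with a range of 1116 to 135439. The medians of the 7 other types ran from 11858 (enteroendocrine) to 19131.5 (secretory progenitor) in library 1 and from 12685 (enteroendocrine) to 37838 (secretory progenitor) in library 2. In spite of that depth, a median of 2574.5 and 3504 genes was detected per Paneth cell, while all other annotated cells had medians of 3434.5 and 4291.5.

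A handful of genes filled most of the Paneth transcriptome. There were 16 genes above 1% of the Paneth UMIs in at least 1 library, and together they held 84.1% in library 1 and 67.3% in library 2. The same genes held 1.15% and 0.881% in the other annotated cells. When each cell was thinned to 1000 UMIs, which left out 0 Paneth cells, the median Paneth cell showed 119 genes in library 1 and 201 in library 2. The other types then had medians between 508 and 616.5 genes in library 1 and between 523.5 and 620 in library 2. With the 16 genes removed before thinning, the Paneth medians were 503 and 524 genes, and those of the other types ran from 521 to 617 and from 535 to 616. The gap between Paneth cells and the rest was thus far smaller once the 16 genes were set aside. The UMIs outside these genes are called the remaining UMIs below, and their median per cell was 10485.5 and 16735 in Paneth cells against 15939 and 24334 in the other annotated cells.

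Of the 16 genes, 11 belonged to the α-defensin family of chromosome 8. The files list 29 protein-coding members, counting those that RefSeq now names Defa under an older Gm symbol (27 matched by symbol or synonym), AY761184 and AY761185. In GENCODE M21 (GRCm38) all 29 lie between positions 20943694 and 21735471 of that chromosome. Sequences matter for what follows, because several members are copies that short reads cannot tell apart. The last 99 coding bases, without the stop codon, are printed from GENCODE M21 for the abundant members and for those that differed between libraries, each 5′ to 3′, with in-frame tgc and tgt codons, which encode cysteine, in capitals.
Defa24: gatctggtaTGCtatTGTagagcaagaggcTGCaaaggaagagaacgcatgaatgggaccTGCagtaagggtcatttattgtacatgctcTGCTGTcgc
Gm15284: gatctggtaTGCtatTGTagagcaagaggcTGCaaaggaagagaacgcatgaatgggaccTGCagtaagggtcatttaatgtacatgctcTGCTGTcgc
Gm15299: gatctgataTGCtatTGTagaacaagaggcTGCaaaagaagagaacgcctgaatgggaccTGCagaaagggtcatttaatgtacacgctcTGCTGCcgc
Defa21: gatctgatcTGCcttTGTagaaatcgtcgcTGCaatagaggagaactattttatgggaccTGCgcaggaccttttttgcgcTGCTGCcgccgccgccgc
Defa22: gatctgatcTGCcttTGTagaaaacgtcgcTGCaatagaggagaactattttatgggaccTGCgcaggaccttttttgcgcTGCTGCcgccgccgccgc
Defa20: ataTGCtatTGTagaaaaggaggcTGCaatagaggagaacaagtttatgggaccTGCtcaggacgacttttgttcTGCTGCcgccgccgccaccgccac
Gm15308: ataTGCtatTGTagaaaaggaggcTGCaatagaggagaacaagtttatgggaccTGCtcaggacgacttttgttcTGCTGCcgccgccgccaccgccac
AY761184: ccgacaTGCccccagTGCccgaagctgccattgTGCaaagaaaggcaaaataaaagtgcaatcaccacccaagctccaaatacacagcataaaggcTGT
Gm14851: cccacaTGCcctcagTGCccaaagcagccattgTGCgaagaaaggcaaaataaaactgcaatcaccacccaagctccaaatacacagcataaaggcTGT
AY761185: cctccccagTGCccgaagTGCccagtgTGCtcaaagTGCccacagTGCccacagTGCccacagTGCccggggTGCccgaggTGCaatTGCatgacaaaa

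The printed ends fall into 3 kinds. Defa24, Gm15284, Gm15299, Defa20, Defa21, Defa22 and Gm15308 have 6 cysteine codons in these bases, AY761184 and Gm14851 have 4, and AY761185 has 10. Defa24 and Gm15284 differ at 1 of the 99 bases, as do Defa21 and Defa22, while Defa20 and Gm15308 have the same coding sequence from end to end. Over whole coding sequences, the closest relative of a member was 71.6% identical for AY761185 and 100% for the closest copies, with a median of 98.9%. Of all 50-base windows of a transcript, a median of 25.1% occurred in no other member. For 7 members, among them Defa20, Gm15308, Gm14850 and Gm7849, the share was 0%, so how their reads were shared out depends on the authors' counting. AY761185 (100%), Defa24 (71.9%) and AY761184 (71.6%) were the most distinct. Where it matters, members at least 99% identical in coding sequence are therefore also given as sums.

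The α-defensin family held 75.8% of all Paneth UMIs in library 1 and 56.2% in library 2, against 0.592% and 0.233% in the other annotated cells. The family's share of a single Paneth cell ran from 32.3% to 86.0% in library 1, with a median of 77.3%, and from 3.14% to 76.9% in library 2, with a median of 55.3%. Defa24 alone made up 28.4% of the Paneth UMIs in library 1 and 25.2% in library 2. Gm15284 followed with 10.2% and 9.06%. AY761184, a member with 4 cysteine codons in its printed end, held 6.68% and 5.96%. As shares of all UMIs these 3 genes were close in both libraries, but relative to the remaining UMIs they were 2.32, 2.32 and 2.31 times higher in library 1. The median compared gene with at least 50 Paneth UMIs in each library had a log2 difference (library 2 over library 1) of 0.92 on all UMIs and 0.07 on the remaining UMIs.

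Other abundant members were less even. Defa21 held 5.65% of the Paneth UMIs in library 1 and 2.85% in library 2, and its near-copy Defa22 held 5.40% and 2.91%. Gm14851 held 5.73% and 2.76%. Of the 29 members, 10 were above 1% in library 1 and 8 in library 2, and Defa2 had 0 UMIs in library 1 and 1 in library 2.

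**Figure D1:**
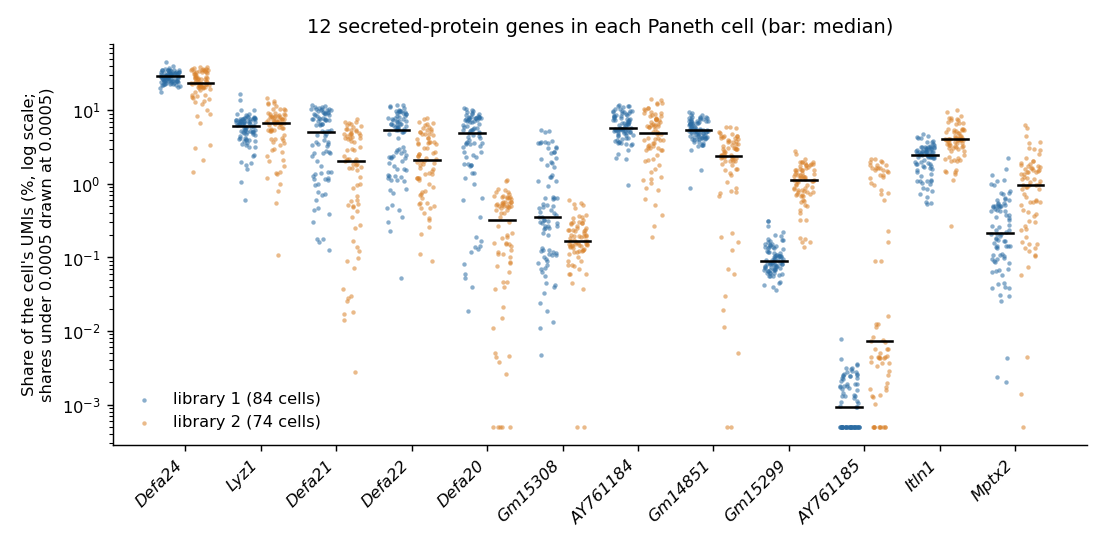
Share of each Paneth cell's UMIs (vertical axis, percent, log scale) held by 12 genes, in library 1 (blue, 84 cells) and library 2 (orange, 74 cells); each point is a cell and each bar a median. Shares under 0.0005% are drawn at that value. Defa24 has medians of 28.96% and 23.8%, while AY761185 stays at or under 0.00789% in library 1 and passes 1% in 21 cells of library 2.

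Outside the defensins, the abundant Paneth transcripts encode other granule proteins. Lyz1 held 5.98% of the Paneth UMIs in library 1 and 6.28% in library 2, and ran from 0.613% to 16.6% and from 0.108% to 14.98% among single cells. Itln1, a lectin that binds microbial sugars, held 2.37% and 3.86%. Spink4, a secreted protein shared with goblet cells, held 1.04% and 1.71%. Ang4 held 1.01% and 0.820%. Mptx2, a pentraxin, held 0.369% and 1.20%. Of these, Lyz1 was the most even between the libraries as a share of all UMIs and Mptx2 the least. On the remaining UMIs Spink4 was the most even (1.25 times higher in library 1) and Ang4 the least (2.54 times).

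How many genes appear higher or lower in Paneth cells depended on the denominator. CPM is the usual depth-scaled count. A gene was compared where the mean of its Paneth CPM and its other-cell CPM, set as UMIs of the Paneth sum, reached 10 in each library. This left 9632 genes. Genes high only in the other cells could pass too, so a lower call can rest on few Paneth UMIs. A gene was called when both libraries gave at least a 2-fold difference in the same direction on log2(CPM + 5). Of all UMIs, 61 genes (0.633%) took a higher share in Paneth cells and 5820 (60.4%) a lower share. Of the remaining UMIs, 319 genes (3.31%) were higher and 579 (6.01%) lower. With TMM factors, which centre the bulk of genes, 253 (2.63%) were higher and 400 (4.15%) lower. The median log2 fold over all compared genes was −1.68 in library 1 and −1.19 in library 2 with all UMIs, −0.21 and −0.10 with the remaining UMIs, and −0.10 and −0.10 with TMM factors. All 61 genes that were higher by the first scaling were also higher by both others, and all 579 genes lower by the remaining UMIs were among the 5820. A lower share of all UMIs was thus the common state of a gene, and the lists below are read on the remaining UMIs. The remaining UMIs were not free of granule transcripts. Family members outside the 16 genes held 15.6% and 8.60% of them in Paneth cells, against 0.0293% and 0.00748% in the other cells. Other antimicrobial and granule genes held 6.45% and 3.39%, against 0.694% and 1.54%. The skew was thus reduced and not removed, and what was left differed between the libraries. Each list count is to be set beside the shares over all compared genes given here. These calls rest on both libraries agreeing: library 1 alone would call 521 genes higher and 1070 lower on the remaining UMIs.

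**Figure D2:**
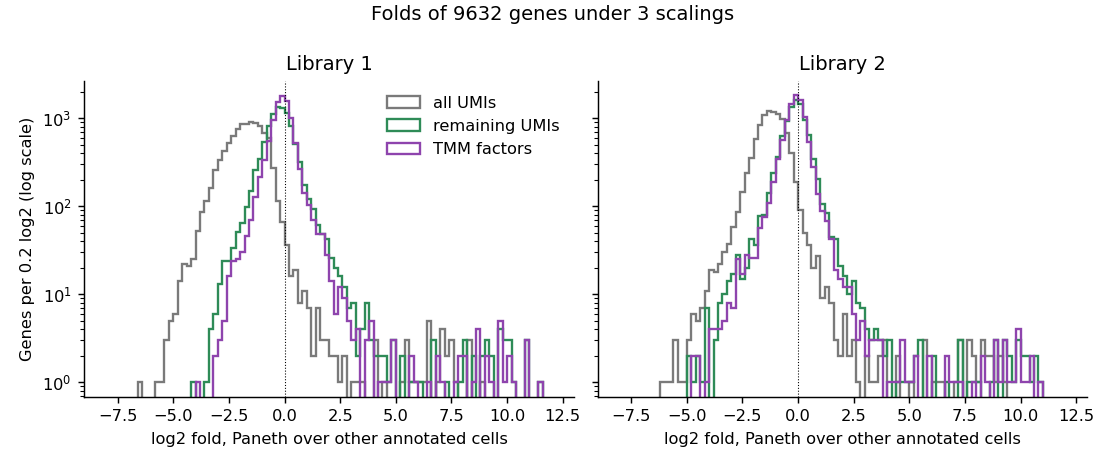
Number of genes (vertical axis, log scale) by log2 fold of Paneth over other annotated cells (horizontal axis) in library 1 (left) and library 2 (right), for 9632 genes and 3 scalings. With all UMIs the bulk lies at medians of −1.68 and −1.19, and with the other scalings it lies near 0, while the granule genes form the tail on the right.

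The rule that named the 4 markers used Paneth expression, so their size is given only as a description. Lyz1 reached log2 folds of 7.02 and 7.78 in libraries 1 and 2 with all UMIs, and 9.66 and 9.38 with the remaining UMIs. Defa24 reached 6.34 and 7.28 with all UMIs. Ang4 reached 7.15 and 7.93, and Mmp7 4.58 and 4.41. Mmp7 held 0.132% of the Paneth UMIs in library 1 and 0.245% in library 2, so the processing enzyme was far less abundant in UMIs than the defensins it cuts.

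Of the 61 genes higher with all UMIs, 25 were α-defensins, and these 25 were all of the 26 compared family members except Defa25 (102 and 20 Paneth UMIs). Gm14851 (log2 8.85 and 9.10) and AY761184 (7.61 and 9.31) were among the largest folds. Mptx2 (7.46 and 8.78) was the highest outside the family. Clps, the colipase cofactor of pancreatic lipase, reached 6.54 and 7.03. Its level was 5133 CPM in library 1 and 3822 CPM in library 2, against 50.1 and 24.3 CPM in the other cells.

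Of 21 compared genes of the other antimicrobial and granule proteins, 12 were higher and 6 lower with all UMIs, and 14 higher and 4 lower with the remaining UMIs. The median log2 fold of this list on the remaining UMIs was 4.68 in library 1 and 4.67 in library 2. Pnliprp2, a lipase related to the pancreatic ones, was at 3135 and 1651 CPM of the remaining UMIs in Paneth cells against 4.08 and 2.87 CPM in the other cells. Lyz2, the lysozyme better known from macrophages, was at 345 and 235 CPM against 0.727 and 0.209 CPM. Lyz2 had 321 and 341 UMIs in the Paneth sums, where Lyz1 had 350468 and 278584. Lyz1 was also present in the other cells, at 461 and 283 CPM of the remaining UMIs. The part of Lyz1 reads in the Lyz2 counts was not tested. Reg4, a secreted C-type lectin, was at 7095 and 2571 CPM against 131 and 56.98 CPM. Guca2b (uroguanylin) was higher by log2 2.49 and 2.63.

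The 4 lower members of that list were Reg1, Reg3a, Reg3b and Dmbt1. Reg3b, an antibacterial lectin known from enterocytes, was at 202 and 777 CPM of the remaining UMIs in Paneth cells and at 1590 and 8199 CPM in the other cells. Its log2 fold was −2.94 in library 1 and −3.39 in library 2. Dmbt1, a secreted scavenger receptor, had folds of −2.80 and −2.96. Reg1 rested on 3 and 1 Paneth UMIs. Lectins of the REG family were thus on both sides within 1 list, Reg4 higher and Reg1, Reg3a and Reg3b lower. Reg3g, also compared, was not called on the remaining UMIs (−0.13 and −1.03). Against goblet cells Reg4 was still higher, while Reg1, Reg3a, Reg3b and Reg3g were not called.

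Outside the lists, the following genes are named after their values were seen. Bambi, a pseudoreceptor that dampens TGF-β signals, was at 158 and 118 CPM of all UMIs in Paneth cells and at 5.197 and 3.17 CPM in the other cells. Habp2 was at 37.5 and 94.1 CPM against 1.27 and 1.81 CPM. Tmed6, a cargo receptor of the early secretory pathway, was at 105 and 148 CPM against 12.3 and 9.78 CPM. Fzd9, a Frizzled receptor, had 63 and 54 Paneth UMIs, at 10.7 and 12.2 CPM against 0.166 and 0.207 CPM.

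Genes of ER protein folding and secretion showed how much the reference population matters. Of 43 compared genes, 1 was higher and 25 lower with all UMIs, and 9 were higher and 0 lower with the remaining UMIs, where the list's median log2 fold was 0.55 and 0.31. Copz2, a subunit of the COPI vesicle coat, stood out at 201 and 110 CPM of the remaining UMIs against 1.79 and 2.39 CPM. Herpud1, a factor of ER-associated degradation, was higher by log2 2.29 and 1.60, and Edem1, which recognises misfolded glycoproteins, by 1.73 and 1.62. The chaperone Hspa5 (BiP) was called lower with all UMIs (log2 folds of −2.36 and −1.76) and was near 0 on the remaining UMIs (0.19 and −0.19). Against goblet cells, the other large secretory type, 303 of the compared genes (3.15%) were higher in Paneth cells and 235 (2.44%) lower on the remaining UMIs. In that comparison 1 ER gene (Copz2) was higher and 8 were lower. Agr2, a disulfide isomerase needed for mucin, was at 3340 and 4264 CPM in Paneth cells and at 21719 and 26053 CPM in goblet cells.

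Of 11 compared regulators of the unfolded protein response, which adjusts the ER to its load, 2 were higher and 0 lower on the remaining UMIs (0 and 2 with all UMIs). They were Asns (log2 2.45 and 1.81) and Chac1 (2.25 and 1.11), both known targets of the factor Atf4. Chac1 rested on 23 and 16 Paneth UMIs and was not called with TMM factors. Xbp1, which drives the expansion of the ER, was called lower with all UMIs and had folds of 0.76 and 0.47 on the remaining UMIs, where it was not called.

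Of 32 compared lineage transcription factors, 5 were higher and 9 lower on the remaining UMIs (1 and 21 with all UMIs, 5 and 4 with TMM factors). Bhlha15 (Mist1), a regulator of secretory cell architecture, was at 132 and 96.6 CPM of the remaining UMIs in Paneth cells, at 2.63 and 2.90 CPM in the other cells and at 16.6 and 10.0 CPM in goblet cells. Sox9, which Paneth cells need to form, was at 172 and 142 CPM. Tuft cells had more of it (291 and 233 CPM), and stem cells less (76.9 and 106 CPM). Atoh1, the factor that commits cells to the secretory fate, was higher by log2 1.21 and 1.35 over all other cells, and its folds against goblet cells were −1.33 and −0.51. Id1 and Id3, inhibitors of bHLH factors, were lower by log2 −2.23 and −1.81 and by −1.90 and −2.33.

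Among 23 compared niche signals and receptors, 4 were higher and 2 lower on the remaining UMIs (1 and 10 with all UMIs). Wnt3, the Wnt ligand known from Paneth cells, was at 144 and 126 CPM in Paneth cells. Enteroendocrine cells came next with 35.1 and 20.996 CPM (19 and 17 UMIs), and the other types were at or under 8.05 CPM in both libraries. The Paneth level rested on 134 and 182 Paneth UMIs. Ephb3, a receptor that keeps Paneth cells at the crypt base, was higher by log2 2.28 and 2.03. Kit was higher by 2.37 and 1.80, and Lgr4, a receptor of R-spondins, by 1.01 and 1.14. Kit was not particular to Paneth cells, at 74.2 and 57.2 CPM there and at 56.8 and 75.8 CPM in tuft cells. Goblet cells, enteroendocrine cells and secretory progenitors had 22.2 to 38.8 CPM of it. The lower genes were Kitl, which was not called with TMM factors, and Bst1, which rested on 2 and 1 Paneth UMIs. Dll1, a Notch ligand, had folds of −0.03 and −0.48.

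Of 16 compared genes of zinc and metal handling, 1 was higher and 1 lower (0 and 13 with all UMIs). Over all 9632 compared genes 3.31% were higher and 6.01% lower (0.633% and 60.4% with all UMIs). A count of 1 gene each way is thus near the common share. Slc30a2 (ZnT2), the transporter that loads zinc into Paneth granules, was at 62.4 and 145 CPM of the remaining UMIs against 7.94 and 3.71 CPM. Slc39a5, a zinc importer, was lower by log2 −1.71 and −1.50. Of 21 compared genes of innate sensing and autophagy, 3 were higher and 0 lower (0 and 16 with all UMIs). They were the autophagy genes Atg7 (log2 2.36 and 2.46), Map1lc3a (43.0 and 31.7 CPM against 14.9 and 9.94 CPM) and Sqstm1 (1.51 and 1.03), the last of which was not called with TMM factors.

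Energy metabolism genes took a smaller part of the Paneth transcriptome even on the remaining UMIs. Of 15 compared glycolysis genes, 0 were higher and 7 lower, with a median log2 fold of −1.43 and −1.10. Ldha, lactate dehydrogenase, was at 362 and 358 CPM in Paneth cells against 1065 and 1183 CPM. Of 77 nuclear genes of oxidative phosphorylation, 0 were higher and 16 lower, with medians of −1.06 and −0.86. Against goblet cells the counts were 1 lower for glycolysis and 0 for oxidative phosphorylation. Of 13 mitochondrially encoded genes 0 were called on the remaining UMIs, and of 81 ribosomal protein genes 0 were called, although 12 of the first and 78 of the second were lower with all UMIs.

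**Figure D3:**
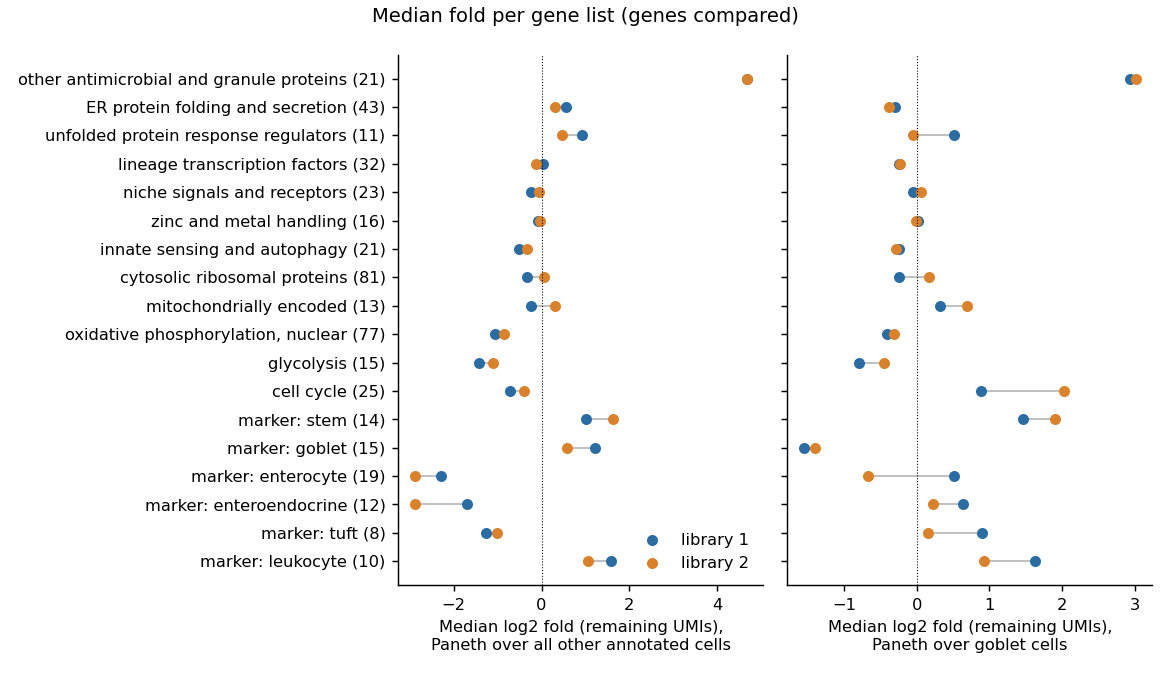
Median log2 fold on the remaining UMIs for 18 gene lists (number of compared genes in brackets), for Paneth cells over all other annotated cells (left) and over goblet cells (right), in library 1 (blue) and library 2 (orange). Granule genes lie at 4.68 and 4.67 on the left, and ER genes change side between the panels, from 0.55 and 0.31 to −0.31 and −0.38.

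Stem cell markers were nearly as abundant in the remaining UMIs of Paneth cells as in those of the cells annotated as intestinal stem cells, and less abundant in all UMIs. Of 14 compared markers, 7 were higher in Paneth cells than in all other cells on the remaining UMIs and 0 lower, while 0 were called either way with all UMIs. Lgr5, the R-spondin receptor that defines the stem cells, was at 39.8 and 71.0 CPM of the remaining UMIs in Paneth cells and at 34.3 and 64.2 CPM in stem cells. Of all UMIs it was at 6.31 and 23.2 CPM in Paneth cells and at 33.97 and 64.1 CPM in stem cells, so the direction turned with the denominator. Enterocytes had 1 and 3 UMIs of Lgr5 in all. The Paneth values rested on 37 and 103 UMIs. Summed over the 15 listed markers, Paneth cells had 824 and 1325 CPM of the remaining UMIs and stem cells 926 and 1498 CPM. Of all UMIs the sums were 131 and 433 CPM in Paneth cells and 918 and 1496 CPM in stem cells. On the remaining UMIs the other types ran from 47.2 to 542 CPM in library 1 and from 61.0 to 600 CPM in library 2, with enterocytes lowest in both. Olfm4, a secreted stem cell marker, was at 11.8 and 128 CPM in Paneth cells and at 20.1 and 289 CPM in stem cells. Prom1 was the 1 marker at least 2-fold higher in Paneth than in stem cells in both libraries on the remaining UMIs, by log2 2.07 and 1.99. Of all UMIs Prom1 was at 18.1 and 45.1 CPM in Paneth cells and at 23.2 and 31.0 CPM in stem cells.

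Markers of other cells were also counted in the Paneth sums. Of 19 enterocyte markers, 0 were higher and 19 lower. Fabp1, a fatty acid binding protein, had a log2 fold of −5.61 and −6.11 with all UMIs and was among the lowest, with Rbp2 (−6.52 and −5.46). Of 15 goblet markers, 5 were higher and 2 lower than in all other cells (4 and 2 with TMM factors), and 0 higher and 11 lower than in goblet cells, where Zg16 had folds of −4.12 and −5.03. Of 10 leukocyte markers, 4 were higher and 0 lower on the remaining UMIs, and 0 were higher and 1 lower with all UMIs. Summed over 15 leukocyte genes, Paneth cells had 481 and 325 CPM of the remaining UMIs, and the other 7 types had 29.7 to 260 CPM. Of all UMIs the Paneth sums were 76.3 and 106 CPM, inside the ranges of the other types (57.2 to 259 CPM in library 1 and 29.6 to 218 CPM in library 2). Gzma, a T cell protease, was the largest of the 4 at 125 and 138 CPM. Ptprc, carried by all leukocytes, was at 9.68 and 8.97 CPM, and Itgam was at 0 in library 1. Of the enteroendocrine markers 0 were higher and 8 lower of 12, and of the tuft markers 0 and 3 of 8. With TMM factors 6 enteroendocrine and 1 tuft marker were lower. The part of cells of these types in the Paneth values was not tested. Scrublet, a doublet caller, marked 1 Paneth cell in library 1 and 0 in library 2.

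Paneth cells were not uniform in how far the granule genes filled them. The share of the 16 genes ran from 33.5% to 91.3% in library 1 and from 5.197% to 88.0% in library 2. Across the 84 and 74 cells, that share went with more ER transcripts among the remaining UMIs (Spearman's rho 0.557 and 0.666) and with fewer cell cycle transcripts (−0.508 and −0.513). It also went with fewer stem marker transcripts (−0.501 and −0.477) and fewer ribosomal protein transcripts (−0.48 and −0.419). It went with more goblet marker transcripts (0.397 and 0.616). It went with fewer remaining UMIs per cell (−0.475 and −0.291), the depth that these list shares are taken over. With enterocyte marker transcripts rho was 0.52 in library 1 and 0.125 in library 2, and with early response transcripts −0.054 and −0.363. Its relations with total UMIs (0.177 and 0.272) and with the mitochondrial share of the remaining UMIs (−0.242 and −0.225) were weaker. These are ranks of cells within a library, which share their library and, in part, their depth, and no test was made. The remaining UMIs still held other α-defensins (15.6% and 8.60% of them in the Paneth sums), and shares of 1 total compete. A negative value may thus be partly built in, and the size of that part was not tested. Over the Paneth sums, 25 cell cycle genes gave 0 calls on the remaining UMIs.

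Some α-defensins fell into sets that went together from cell to cell. Among Defa24, AY761184, Gm14851 and Gm15299 all 6 pairs were positive. As shares of all UMIs, rho ran from 0.49 to 0.646 in library 1 and from 0.673 to 0.849 in library 2. As shares of the family's own UMIs it ran from 0.444 to 0.617 and from 0.211 to 0.651. Among Defa20, Defa21, Defa22 and Gm15308 all 6 pairs were positive too, from 0.719 to 0.903 and from 0.509 to 0.895. Of the family's own UMIs these ran from 0.692 to 0.899 and from 0.314 to 0.86. Defa20 and Gm15308 had 0% of windows of their own, so pairs with them depend in part on the authors' counting. Of the 16 pairs between these sets, 0 were positive in library 1 and 4 in library 2 as shares of all UMIs. Of the family's own UMIs 0 were positive in either library. In library 1 the share of Defa21 and Defa22, summed, ran with that of Defa20 and its copies (Spearman's rho 0.788 over 84 cells) and against that of Defa24 (−0.594), AY761184 (−0.518) and Gm14851 (−0.631). In library 2 the first relation was 0.746 over 74 cells, and those with Defa24, AY761184 and Gm14851 were −0.09, −0.221 and −0.035 as shares of all UMIs. Within the family's own UMIs they were −0.735, −0.746 and −0.422. The abundant Gm15284 did not keep to 1 set. Its rho with summed Defa21 and Defa22 was −0.619 in library 1 and 0.521 in library 2 (−0.76 and 0.482 within the family's UMIs). With Defa24 it was 0.499 and 0.299 (0.377 and −0.676 within the family's UMIs). Shares of 1 total compete with each other, so a negative value is partly built in. A positive value on all UMIs can in turn follow the family's share of the cell. The sets were formed after the values were seen. Single-cell values of Defa20 ran from 0.019% to 10.6% in library 1, and those of Defa24 from 17.9% to 45.3%. Defa24 was thus high in all 84 cells of library 1, while Defa20 ranged from near absent to abundant. Adding up Defa20, Defa21, Defa22 and Gm15308, their part of the sum with Defa24, AY761184, Gm14851 and Gm15299 ran from 0.607% to 53.5% in library 1 and from 0.609% to 40.4% in library 2. It was under 5% in 8 and 17 cells. This part had rank correlations of 0.194 and 0.037 with UMIs per cell, and of −0.126 and 0.07 with the mitochondrial share.

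AY761185 was high in a minority of the cells of library 2. There it was under 0.1% of UMIs in 46 of 74 Paneth cells and above 1% in 21, with a highest value of 2.19%. The other 7 cells lay between, from 0.162% to 0.967%. In library 1 its highest value was 0.00789%, and 84 of 84 cells were under 0.1%. Its summed share was 0.00119% in library 1 (70 UMIs) and 0.545% in library 2 (24176 UMIs). In library 2 its share of the family's UMIs ran with those of Defa21 and Defa22 (rho 0.607) and Gm15284 (0.668) and against that of Defa24 (−0.697). AY761185 had no near copy, and 100% of its 50-base windows occurred in no other member.

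**Figure D4:**
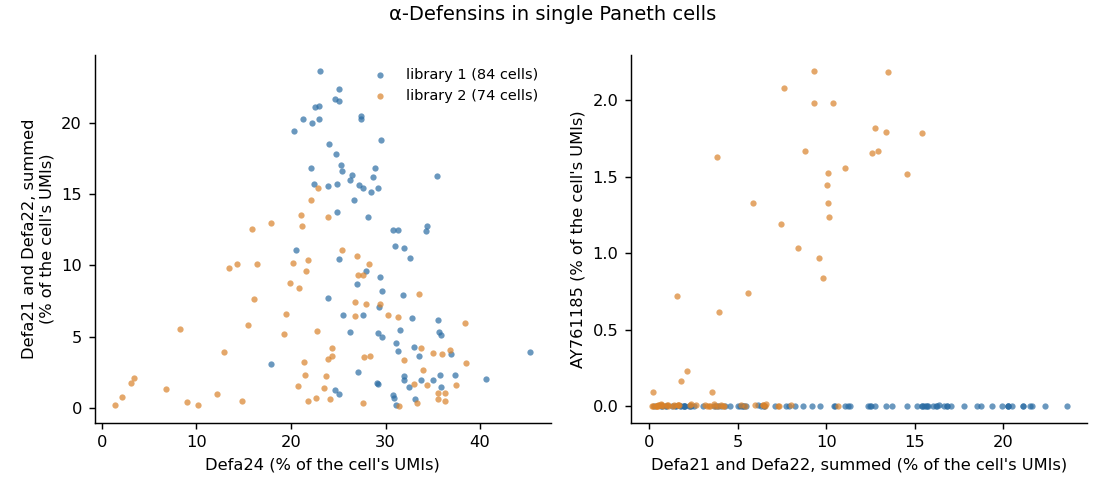
Paneth cells of library 1 (blue, 84 cells) and library 2 (orange, 74 cells), each point a cell: summed Defa21 and Defa22 against Defa24 (left) and AY761185 against summed Defa21 and Defa22 (right), all as percent of the cell's UMIs. AY761185 reaches 2.19% in library 2 and stays at or under 0.00789% in library 1.

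The upstream sequence of Defa20 and Defa21, which went together from cell to cell, is set beside that of AY761185. AY761185 went with them in library 2, and its 70 Paneth UMIs in library 1 were too few to tell. The 120 bases before the RefSeq start are given (GRCm38.p6, 5′ to 3′ on the gene's strand). No promoter of the Defa24 set is shown, and that of Defa24 was not among the RefSeq promoters, so the sets are not compared. Capitals mark ATCAAAG, which is CTTTGAT on the other strand and the usual binding sequence of TCF factors of the Wnt pathway, and the TATAAA box.
Defa20 (chr8:21509138-21509257, plus strand): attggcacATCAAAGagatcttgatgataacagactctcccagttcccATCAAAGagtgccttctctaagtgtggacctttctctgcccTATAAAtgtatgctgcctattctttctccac
Defa21 (chr8:21025425-21025544, plus strand): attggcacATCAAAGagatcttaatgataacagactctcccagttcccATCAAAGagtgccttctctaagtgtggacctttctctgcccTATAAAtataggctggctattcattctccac
AY761185 (chr8:20944749-20944868, minus strand): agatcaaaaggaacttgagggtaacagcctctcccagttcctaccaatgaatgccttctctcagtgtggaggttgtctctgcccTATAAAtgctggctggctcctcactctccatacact

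Defa20 and Defa21 carry ATCAAAG at the same 2 places in these windows, and AY761185 carries no match. Over 250 bases upstream on both strands, CTTTGAT was found in 13 of the 17 family promoters in the RefSeq table and in 3.23% of 27025 promoters in all. TATAAA was found in 16 of 17 and in 12.97% of all, and CTTTGAA in 0 of 17 and in 4.64%. The family's promoters are copies of each other, so their matches are not independent. A match is a description of letters and not of binding.

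The largest differences between the Paneth cells of the 2 libraries were in the same family. Of the 10 genes with at least 50 Paneth UMIs in each library and the largest difference, 5 were family members: AY761185, Defa20, Gm7861, Gm15299 and Defa17. The other genes were Gm42418, Ceacam10 and 3 mitochondrially encoded genes. On the remaining UMIs 7 of the 10 were family members: AY761185, Defa20, Gm7861, Defa17, Gm14850, Gm15308 and Gm6696. These ranks were taken after the first were seen. Defa20 held 5.04% of the Paneth UMIs in library 1 and 0.376% in library 2, a ratio of 13.4 (27.6 on the remaining UMIs). With its near copies (Defa2, Gm21002 and Gm15308) the shares were 6.22% and 0.624%, a ratio of 9.98. The summed copies had single-cell medians of 5.41% in library 1 and 0.492% in library 2, with ranges of 0.0377% to 15.7% and 0% to 1.79% that overlap. Defa17 and its copy Defa3 held 0.968% and 0.109% together. Gm14850 and its copy Gm21498 held 1.05% and 0.147%.

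Other members went the opposite way. Gm15299 held 0.110% of the Paneth UMIs in library 1 and 1.21% in library 2, and its single cells ran from 0.0364% to 0.314% and from 0.138% to 2.77%, ranges that overlap little. Gm10104 held 0.149% and 0.979%. Gm21002, summed above with Defa20 as a near copy, went this way too at a low level. It had 343 Paneth UMIs in library 1 and 1350 in library 2, and was 2.52 times higher in library 2 on the remaining UMIs. None of its windows was its own, and the part of read assignment among the copies was not tested. On the remaining UMIs Gm15299 was 5.36 times, Gm10104 3.18 times and AY761185 222 times higher in library 2. Gm15299 shares 91.0% of its coding sequence with Defa24, and 49.4% of its 50-base windows were its own. Its GENCODE transcript has 282 bases, 279 of them coding, while that of Defa24 has 419 bases with 279 coding. The windows of Gm15299 thus hold almost no untranslated sequence, and its share is not on the same footing as that of Defa24. A stretch of 8 neighbouring members from Gm7849 to Defa17 (positions 21455445 to 21656735), chosen after the values were seen, held 7 with a share more than 4 times higher in library 1. Defa26 in that stretch had a ratio of 1.19. Of the 19 other members with at least 20 Paneth UMIs over both libraries, 3 had ratios above 4 (Defa-rs7, Defa3 and Defa5). On the remaining UMIs 7 of 8 and 6 of 19 had ratios above 4. Few windows were a member's own both among those 3 (0% to 7.76%) and in the stretch, where Gm7849, Defa20, Gm15308 and Gm14850 had 0%, Gm7861 2.41% and Defa17 8.05%. Defa26, with 66.6%, was the most distinct member of the stretch, and Gm6696, with 63.5%, had a ratio of 4.50.

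**Figure D5:**
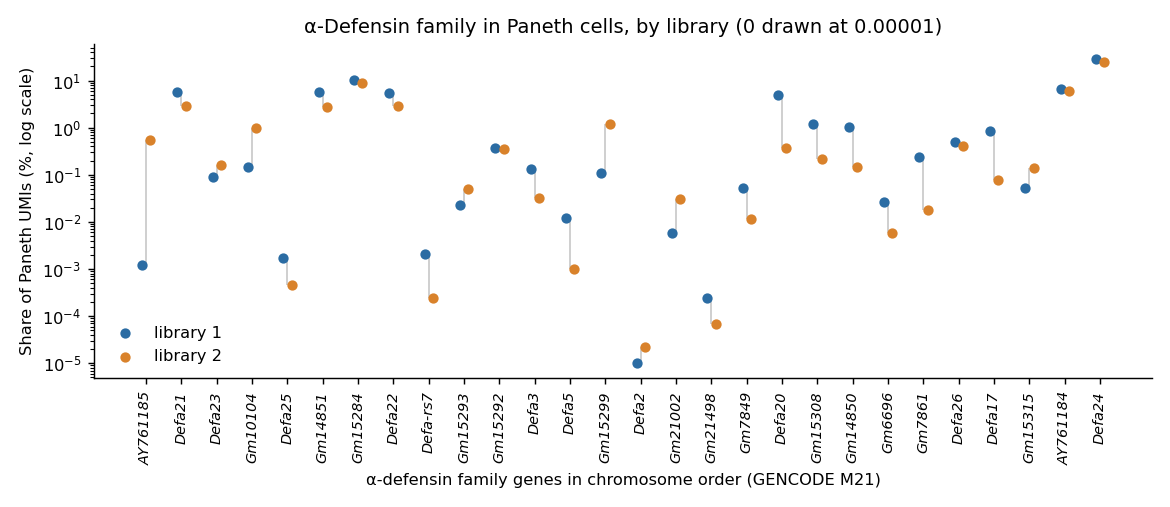
Share of all Paneth UMIs (vertical axis, percent, log scale) held by the α-defensin family genes in chromosome order, 1 of the 29 left out, in library 1 (blue) and library 2 (orange), with a share of 0 drawn at 0.00001%. Defa24, Gm15284 and AY761184 lie close together in the 2 libraries, while Defa20 is at 5.04% and 0.376% and AY761185 at 0.00119% and 0.545%.

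Values outside the Paneth cells differed between the libraries too. In the other annotated cells Reg3b was at 1572 and 8127 CPM and Fabp6, an ileal bile acid binding protein, at 206 and 709 CPM. Gm42418 was at 655 and 3383 CPM there, beside 243 and 2750 CPM in Paneth cells. The part of intestinal position, of animal and of library preparation in the defensin differences was not tested, and with 1 library of each kind they cannot be told apart.

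Paneth transcripts were present at low level in every annotated type. Defa24 was detected in 406 of 406 enterocytes of library 1 at a median depth of 15163.5 UMIs and in 484 of 488 of library 2 at 24697.5 UMIs, so a UMI of Defa24 does not mark a Paneth cell. Its median share in other types was 0.198% to 0.254% in library 1 and 0.0253% to 0.0619% in library 2, against 28.96% and 23.8% in Paneth cells. A minority of goblet cells lay above that level. The 4 markers passed 1% of UMIs in 20 of 105 goblet cells in library 1 and 30 of 250 in library 2. The counts were 9 of 82 and 7 of 146 in secretory progenitors. In enterocytes they were 2 of 406 and 0 of 488, and in stem cells 2 of 78 and 1 of 80.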

How the data were processed

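Per the labels' protocols, the libraries were prepared with 10x Genomics Chromium. The authors deposited UMI counts per gene and barcode, with a table of named cells; the matrix of library 2 was written by software version 3.0.1, per the file headers. No label or header used here names the aligner or build behind these matrices. Annotated barcodes were joined by library and barcode (all 2614 found). UMIs were summed over Paneth and over other annotated cells per library, and set as log2((CPM + 5)/(CPM + 5)). Calls needed 2-fold in both libraries. Binomial intervals are Clopper-Pearson. TMM factors came from edgeR 4.0.16 on those sums, doublet marks from Scrublet in scanpy 1.11.5. Named genes were the members of 24 fixed lists, the 20 highest levels, the 20 largest higher and 15 largest lower folds, and the 10 largest library differences. The members and lists were chosen with earlier results of these data known. In simulated counts with the real composition shift, 100 of 100 genes raised 4-fold were called on the remaining UMIs and 0 on all UMIs. Of 9320 genes, 6886 unchanged ones were called lower on all UMIs and 1 on the remaining UMIs. The simulated shift lay in the same genes that the remaining UMIs leave out, so this recovery was built in. The simulation checks the calculation only, and the error rate of the calls in real cells was not tested. No test was made, since clusters were named from the same cells. Values of 1 family member are not reported here by name; it stays in the family's sums and counts. Sequences came from GENCODE M21 and RefSeq tables of GRCm38, matched by Ensembl ID and symbol.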

Additional observations from a re-analysis of the deposited data

Results flagged for a closer look

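Barcodes outside the annotation also carried Paneth transcripts. In library 2, 148 of 6241 unannotated barcodes reached the marker share of the lowest annotated Paneth cell (2.95% of UMIs for the 4 markers), and 35 reached the annotated median of 33.4%. They had a median of 1147.5 UMIs (518 to 45161) and a median mitochondrial share of 25.1%, against 4.13% in the annotated Paneth cells. Of the 148, 77 had at least as many UMIs as the shallowest annotated Paneth cell, and 4 had more than 20000. In library 1, 1 of 65 unannotated barcodes reached the lowest annotated share (19.1%), with 10862 UMIs. These barcodes enter no value of the report.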

How the results depend on the processing

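The count of genes higher with all UMIs was 61, and 253 with TMM factors, 319 on the remaining UMIs and 39 at 4-fold. The count of lower genes was 5820, and 400, 579 and 1017 under those settings and 2685 with a pseudocount of 20 CPM. On the remaining UMIs, 319 higher and 579 lower genes became 61 and 5820 with all UMIs, 168 and 311 with a pseudocount of 20 CPM, and 97 and 121 at 4-fold. The lower count was 255 with goblet cells as the only reference and the count filter taken on goblet sums (9056 genes), beside the 235 of the 9632 genes given above. Leaving out 1 library gave 64 to 85 and 5929 to 7748 genes with all UMIs, and 412 to 521 and 746 to 1070 on the remaining UMIs, where agreement of both libraries was no longer needed. The Paneth share of annotated cells was 6.04%, and 5.03% to 7.34% over single libraries. The α-defensin share was 66.0%, and 48.7% with only the symbols that start with Defa and AY761184, an alternative chosen after seeing the data, as were the sums of near copies and the value without Paneth cells under 10000 UMIs. The median genes per thinned Paneth cell were 160, and 94.25 at 500 UMIs, 269.75 at 2000 UMIs and 513.5 with the 16 genes removed first. Of 741 log2 folds of 57 named genes under the 13 settings that can move a fold, 11 in 8 genes turned sign. Many of these genes were chosen for large folds. Against goblet cells alone, Spink4 turned to −1.20, Gip to 0.15 and Cck to 0.13. With TMM factors and on the remaining UMIs, mt-Atp6 turned to 0.112 and 0.076, Hspa5 to 0.037 and 0.003, and Xbp1 to 0.63 and 0.62. Without goblet cells and secretory progenitors in the reference, Agr2 turned to 2.12 and Tff3 to 1.46. The cause was not tested. The ratio of Defa20 between libraries was 13.4, 9.98 with near copies summed and 27.6 on the remaining UMIs, the last added after seeing the data. The alternative without shared barcodes was not run, since there were 0. No paired analysis was possible because the libraries form 1 group and no test was made, and each fold is taken within a library. Low genes such as Wnt3 (134 and 182 UMIs) are known only as sums over cells.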
